A study of Mus spretus with 8 samples.

Results

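Amino acid catabolism in mouse liver was examined as a set of 44 genes that encode transaminases and the enzymes that break down tyrosine, tryptophan, serine, histidine, proline, ornithine, lysine, the branched-chain amino acids and the sulfur amino acids. The genes are taken from a list of symbols, and 42 of the 44 had a probe under their symbol in the annotation table, out of 22471 named genes on the array (Mut is listed there as Mmut). The serine dehydratase genes Sds and Sdsl had none, so serine was not analysed here. 1 of the 44, Gstcd, encodes a protein with a glutathione S-transferase-like domain and no established step in amino acid breakdown, and it is kept apart below. All mice were males of SPRET/EiJ, an inbred strain of Mus spretus, which is a wild-derived species close to the laboratory mouse; the design gives their age as 7 weeks. The DDE group was 4 mice given Harlan feed carrying p,p'-DDE in corn oil at 450 mg/kg for 30 days, and the control group was 4 mice given the same feed with corn oil and no DDE. p,p'-DDE is the long-lived breakdown product of the insecticide DDT. Total RNA was hybridised to Agilent 1-colour arrays, 8 in all, and every value below is a deposited log2 signal.

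The liver is the main site where surplus amino acids are taken apart. A transaminase usually moves the amino group to alpha-ketoglutarate, the nitrogen goes on to urea, and the carbon skeleton enters glucose synthesis, ketone bodies or the citric acid cycle. Many of these enzymes are known to follow feeding state, glucagon and glucocorticoids, and aspartate and alanine transaminase activity in blood is a standard sign of liver injury. Side branches feed other products, such as NAD from tryptophan, one-carbon units from histidine and taurine from cysteine.

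Of the 42 measured genes, 38 read above the background level on all 8 arrays, while Amdhd1 was above it on 1 array and Gstcd on 0. The background level of an array was set from probes for olfactory and vomeronasal receptors and lay between 7.55 and 7.81. Patches where neighbouring spots deviated together covered 0.521% to 9.50% of the spots of an array, with the highest shares in DDE 4 (7.59%) and control 4 (9.50%). At least 1 spot lay in such a patch for 8 of the 42 genes (Gpt2, Tat, Kmo, Oat, Bcat2, Dbt, Aass and Cdo1). The hepatocyte markers Alb, Apoa2 and Serpina1a read near the scale's upper limit (16) in all livers, which leaves little room to see a difference. Hnf4a and Asgr1, which read below that limit, differed by -0.06 and -0.40 (limma adjusted p = 0.911 and 0.336). Markers of pancreatic acinar cells were also high and varied between mice: Cpa1, a pancreatic carboxypeptidase, read 15.55, 13.18, 14.38 and 15.12 in the DDE livers and 15.99, 11.50, 15.44 and 15.45 in the control livers (adjusted p = 0.988). The log2 of the summed signal of the 4 pancreatic genes ran from 16.03 to 17.10 in DDE livers and from 15.94 to 17.67 in control livers. Amy2a, 1 of the 4, read near the upper limit in all livers (15.77 to 16), which sets a floor to that sum. Prss1, another of them, ran from 10.42 to 14.54 in DDE livers and from 10.98 to 15.96 in control livers. Among 6 stellate cell genes, 4 (Lrat, Col1a1, Col3a1 and Reln) had DDE values above all control values. In 1, Dcn, they lay below (12.22 ± 0.45 in DDE livers and 13.18 ± 0.19 in control livers, SD, n = 4 each, adjusted p = 0.0767). Over all probes, groups were apart in this way for 8.0% as higher and 3.80% as lower. Over genes above background in at least 4 arrays it was 14.6% and 5.98%. Only Reln of the 6 stellate cell genes passed, as higher after DDE at a level near background. The log2 summed signal of the 6 ran from 12.98 to 14.19 in DDE livers and from 13.36 to 13.69 in control livers. The top DDE sum, in DDE 4, came mostly from a Des patch spot of 13.65, where the other DDE livers read 7.81 to 7.93. The part of pancreatic and stellate cell RNA in the results below was not tested. In whole liver RNA, fewer cells of a type and less RNA per cell cannot be told apart.

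The comparison asks which genes of amino acid breakdown differ in liver after dietary p,p'-DDE. Got1, the cytosolic aspartate transaminase, fell 2.44-fold after DDE, while Gpt2, the mitochondrial alanine transaminase, rose 1.73-fold and Afmid, the second enzyme of tryptophan breakdown, rose 2.51-fold. The other 39 genes did not pass the limma test (Benjamini-Hochberg adjusted p of 0.05 over all 42957 probes). Over all probes, 2.34% (1005 probes) passed as higher and 0.661% (284 probes) as lower, a split that became 1504 higher and 1091 lower with patch spots left out and the arrays quantile normalized again. Among the 10958 genes above background in at least 4 arrays, 5.2% passed as higher and 1.54% as lower, against 4.76% and 2.38% of the 42 genes, so the set held calls at about the rate of expressed genes. Without the arrays of DDE 4 and control 4, 6 of the 42 (14.3%) passed as higher and 1 (2.38%) as lower, against 6.59% and 2.31% of the expressed genes and 2.94% and 1.03% of all probes. Before adjustment, p was under 0.05 for 13 of the 42 (31%) as higher and 5 (11.9%) as lower, where the shares were 20.8% and 8.11% of the expressed genes and 10.7% and 4.22% of all probes. Those shares are the background for the unadjusted counts of each gene group. The 4 DDE values and the 4 control values did not overlap for 13 of the 42 genes, with 10 higher and 3 lower after DDE. Over all probes this held for 8.0% as higher and 3.80% as lower, and over the expressed genes for 14.6% and 5.98%. The median log2 change of the 42 genes was 0.24, against 0.10 for the expressed genes and 0.015 for all probes. A higher mean after DDE was seen in 27 of the 42, in 6394 of the 10958 expressed genes and in 22770 of the 42957 probes. These counts are also the background for the higher means of each gene group. The plot of changes by pathway shows the mixed directions within most groups.

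**Figure D1:**
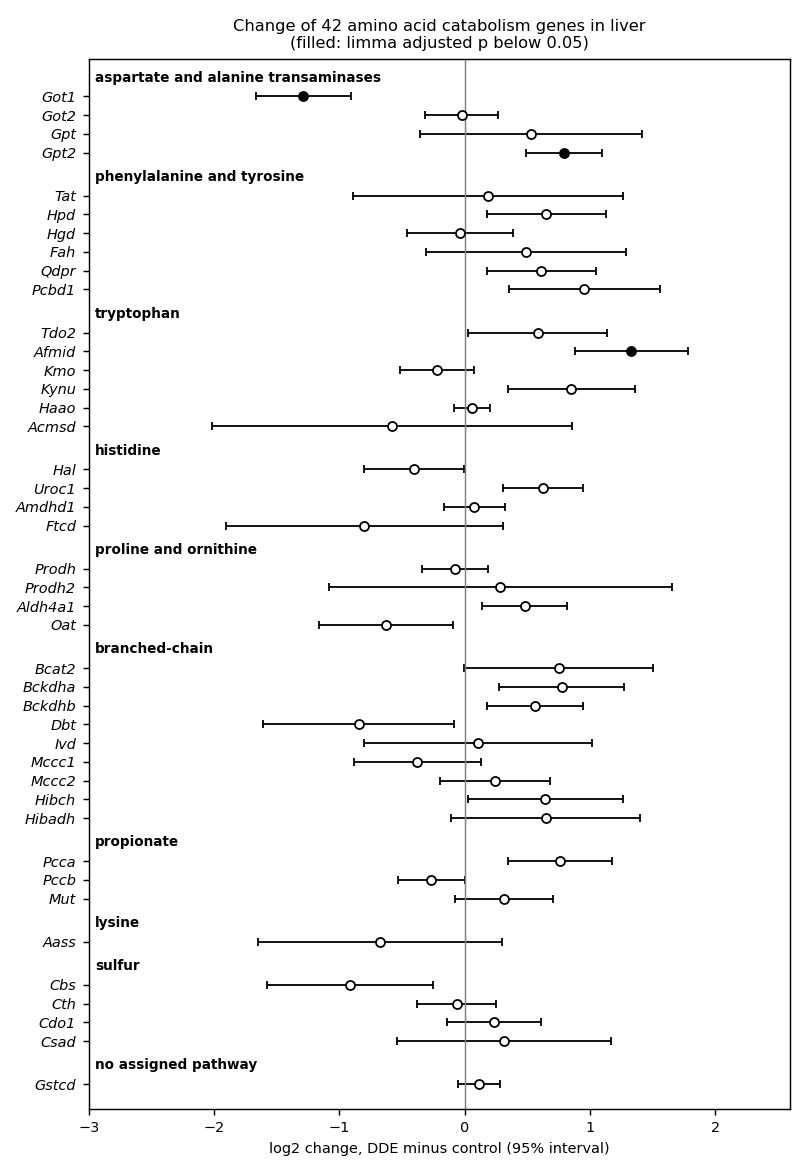
Log2 change (DDE minus control, horizontal axis) of each of the 42 measured genes, grouped by the amino acid it acts on, with its 95% interval from limma (n = 4 mice per group). Filled points mark the 3 genes past an adjusted p of 0.05: Got1 at -1.29, Gpt2 at 0.79 and Afmid at 1.33.

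Aspartate and alanine transaminases. The cytosolic aspartate transaminase fell after DDE, and its mitochondrial counterpart did not pass. Got1, which works in the cytosol and in the malate-aspartate shuttle, read 13.13, 12.77, 12.95 and 12.49 in the DDE livers, against 13.94, 14.35, 14.23 and 13.97 in the control livers. All DDE values lay below all control values, and the log2 change was -1.29 (SE 0.16, limma adjusted p = 0.0128). Got2, the mitochondrial enzyme of the same reaction, read 14.09, 14.19, 14.06 and 13.73 in the DDE livers, against 14.16, 14.14, 14.05 and 13.82 in the control livers. Its groups overlapped almost completely, with a change of -0.03 and a 95% interval from -0.32 to 0.27. Within each array, Got1 minus Got2 ran from -1.42 to -0.96 in DDE livers and from -0.22 to 0.21 in control livers. An exact permutation test gave a two-sided p of 0.0286, the smallest that 4 against 4 allows. Adjusted over the 2 isozyme pairs compared it was 0.0571, which does not pass 0.05. It could pass only if the other pair also had a p under 0.05, so the adjusted test cannot decide on Got1 and Got2 alone. The call of Got1 was lost without DDE 2 (adjusted p = 0.0521) and held in the other 7 fits that left out 1 array.

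Of the alanine transaminases, which exchange alanine for pyruvate, Gpt2 read 12.94, 13.08, 13.28 and 12.71 in the DDE livers, against 12.30, 12.05, 12.28 and 12.21 in the control livers. Every DDE value was above every control value, and Gpt2 averaged 13.00 ± 0.24 in DDE livers and 12.21 ± 0.11 in control livers (SD, n = 4 each; change 0.79, SE 0.13, limma adjusted p = 0.0285). The spot of control 4 lay in a patch, and Gpt2 still passed without patch spots (adjusted p = 0.0369). The call was lost without any 1 of the 7 arrays other than DDE 4 (adjusted p between 0.0513 and 0.0926), and held without DDE 4 (change 0.89, adjusted p = 0.0166). Gpt, the cytosolic alanine transaminase measured in clinical tests, read 13.53, 13.68, 12.89 and 12.82 in DDE livers and 13.39, 13.11, 12.46 and 11.84 in control livers. These overlapped, with a change of 0.53 and a 95% interval from -0.35 to 1.41. The changes of Gpt2 and Gpt differed by 0.26, which did not pass (exact permutation test, two-sided p = 0.486, adjusted p = 0.486).

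**Figure D2:**
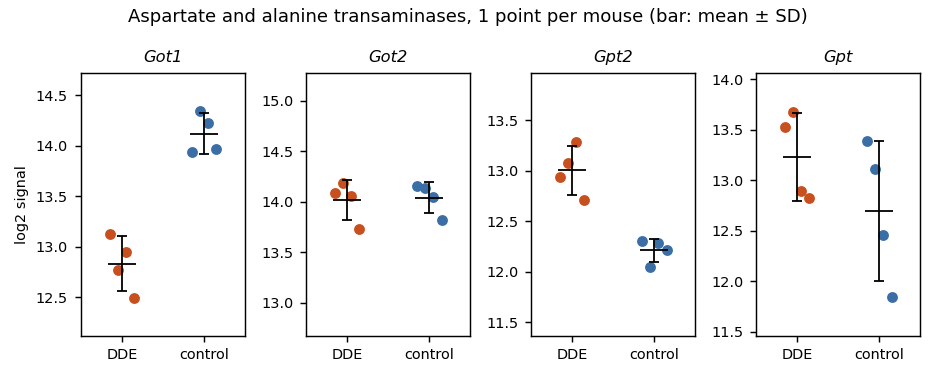
Log2 signal of the 4 transaminase genes in DDE livers (left, orange) and control livers (right, blue), 1 point per mouse, with the mean and SD. The DDE and control points of Got1 and of Gpt2 do not overlap, whereas those of Got2 and Gpt do.

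Phenylalanine and tyrosine. None of the 6 genes passed the limma test (0 of 6; without adjustment, p was under 0.05 for 3 as higher and 0 as lower), and 5 of the 6 had a higher mean after DDE, with a median log2 change of 0.55. The 3 were Pcbd1, Qdpr and Hpd, and in each the DDE values lay above all control values. Pcbd1 and Qdpr encode the pair of enzymes that regenerate tetrahydrobiopterin, the cofactor of phenylalanine hydroxylation. Pcbd1 read 15.58, 15.01, 15.84 and 15.93 in DDE livers, against 14.94, 14.96, 14.26 and 14.38 in control livers. Since 3 DDE signals were near that upper limit, its difference is at least 1.94-fold (adjusted p = 0.113). Qdpr read 14.52, 14.53, 14.75 and 14.29 in DDE livers, against 14.08, 13.81, 13.48 and 14.27 in control livers (change 0.61, adjusted p = 0.15). A second probe of Qdpr gave a change of -0.01, so its probes disagree.

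Further down the route, Hpd, which forms homogentisate, read 13.71, 14.18, 14.26 and 13.55 in DDE livers, against 13.41, 13.17, 12.97 and 13.54 in control livers. DDE 4 and control 4 were nearly equal there (change 0.65, 95% interval 0.18 to 1.13, adjusted p = 0.161). Hgd, which opens the ring of homogentisate, differed by -0.04 (95% interval -0.46 to 0.38). Fah, the last enzyme of the route, was even in DDE livers (12.83 to 13.06) and spread from 11.71 to 13.21 in control livers. Tat, the transaminase that starts tyrosine breakdown and a known glucocorticoid target, read 12.16, 12.36, 10.91 and 13.16 in DDE livers and 12.44, 12.04, 11.74 and 11.62 in control livers. The spread within DDE was larger than the difference of 0.19 between groups, and its highest value, DDE 4, was a patch spot.

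Tryptophan. In the kynurenine route, which leads from tryptophan toward NAD, 1 of 6 genes rose and 0 fell. Afmid, the formamidase that releases kynurenine, read 12.03, 12.39, 12.20 and 11.56 in DDE livers, against 10.86, 10.90, 10.64 and 10.46 in control livers. The groups were well apart, with a change of 1.33 (SE 0.19, limma adjusted p = 0.0199), and none of its spots lay in a patch. Its call was lost without DDE 1, DDE 2, DDE 3, control 2 or control 3, where the adjusted p lay between 0.0540 and 0.0603, with a change of at least 1.22. The enzymes on either side of Afmid did not pass.

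Tdo2, the oxygenase that opens tryptophan's indole ring as the first step, read 11.25, 11.55, 11.74 and 10.59 in DDE livers, against 10.79, 10.69, 10.70 and 10.62 in control livers. DDE 4 was the exception, below all control livers, and the change of 0.58 did not pass (adjusted p = 0.306). Without DDE 4, it passed (change 0.81, adjusted p = 0.0259). In that fit 1362 of the 42957 probes passed as higher and 234 as lower, against 1005 and 284 with all arrays. The DDE 4 spot of Tdo2 lay in no patch, and Tdo2 passed in no other fit without 1 array. Kynu, which splits kynurenine and its hydroxylated form, read 10.59, 10.81, 10.88 and 10.50 in DDE livers, against 10.17, 9.94, 10.05 and 9.22 in control livers. Its groups did not overlap (change 0.85, adjusted p = 0.097), it passed without control 4 (change 0.64, adjusted p = 0.0494), and its dimmer probe gave 0.03. In the fit without control 4, 765 of the 42957 probes passed as higher and 428 as lower. Kynu passed in no other fit without 1 array. Kmo, which hydroxylates kynurenine, averaged 12.74 ± 0.14 in DDE livers and 12.96 ± 0.21 in control livers (adjusted p = 0.501). Its highest control value, control 4 at 13.27, was a patch spot, and its second probe had a change of the opposite sign, 0.34. Haao, the next oxygenase, read near the upper limit of the scale in all 8 livers (15.59 to 15.73 after DDE and 15.51 to 15.63 in controls), which leaves little room to see a rise. Acmsd, whose enzyme diverts the route away from NAD, stayed near background except for a single value of 10.25 in control 2.

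**Figure D3:**
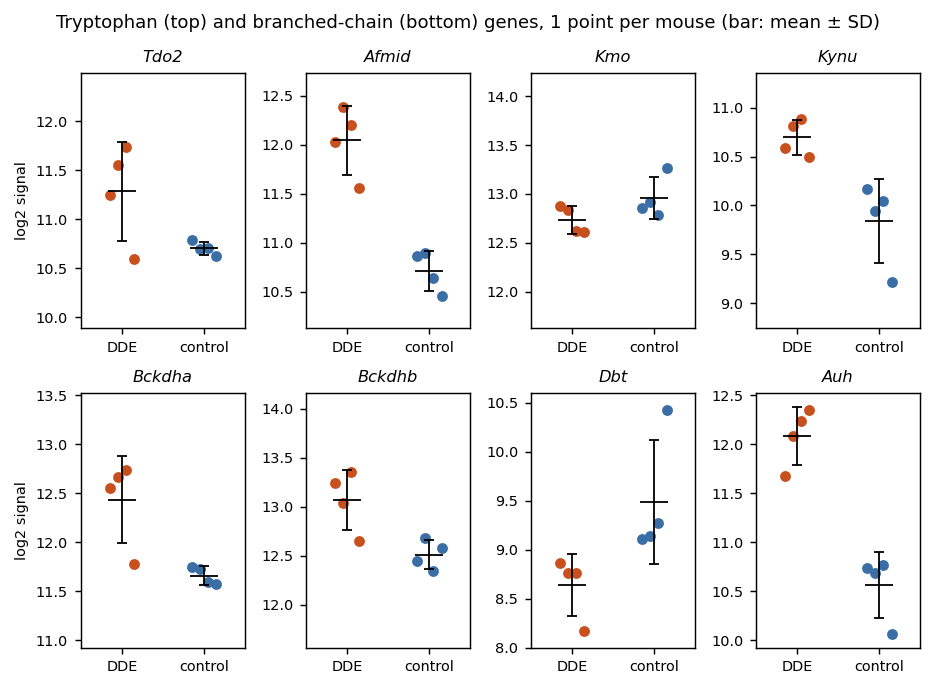
Log2 signal of tryptophan genes (top row) and branched-chain genes (bottom row) in DDE livers (left, orange) and control livers (right, blue), 1 point per mouse, with the mean and SD. In every gene shown except Auh, the DDE 4 liver sits below the other 3 DDE livers. The DDE and control points do not overlap in Afmid, Kynu, Bckdha, Dbt and Auh, whereas those of Tdo2, Kmo and Bckdhb do.

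Branched-chain amino acids and propionate. Leucine, isoleucine and valine are transaminated mostly outside the liver, and their keto acids are oxidised in liver mitochondria by the branched-chain keto acid dehydrogenase complex. None of its genes passed: of 9 branched-chain genes 0 passed in limma, and without adjustment p was under 0.05 for 3 as higher and 1 as lower. The median change of the 9 was 0.56. Subunits of the complex had changes of different sign. Bckdha, a subunit of its decarboxylase, read 12.55, 12.67, 12.74 and 11.78 in DDE livers, against 11.75, 11.73, 11.59 and 11.57 in control livers (change 0.78, adjusted p = 0.118). DDE 4, its lowest DDE value, lay just above the highest control value, so the groups did not overlap. Without that array Bckdha passed (change 0.99, adjusted p = 0.00746). In the fit without DDE 4, 1362 of the 42957 probes passed as higher and 234 as lower, against 1005 and 284 with all arrays. Bckdhb, the partner subunit, read 13.24, 13.04, 13.35 and 12.65 in DDE livers and 12.44, 12.68, 12.34 and 12.58 in control livers (change 0.56, adjusted p = 0.139). It too had DDE 4 as its lowest DDE value, level with the controls, and passed without that array (change 0.70, adjusted p = 0.0316).

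Dbt, the acyltransferase core of the same complex, read 8.87, 8.76, 8.76 and 8.17 in DDE livers, against 9.11, 9.14, 9.27 and 10.43 in control livers. All DDE values were below all control values, but the outermost value of each group was a patch spot, and without patch spots the change moved to -0.38 (adjusted p = 0.0629) from -0.85 (adjusted p = 0.273). Bcat2, the mitochondrial branched-chain transaminase, was dim, above background in 4 DDE and 2 control livers, with a change of at least 1.57-fold that did not pass (adjusted p = 0.337) and a patch spot at its highest value, DDE 4. Ivd, which oxidises isovaleryl-CoA from leucine, differed by 0.11 (95% interval -0.80 to 1.02). The carboxylase subunits Mccc1 and Mccc2, which act after Ivd, differed by -0.38 and 0.24, and the dimmer probe of Mccc1 gave 0.40. In valine breakdown, Hibch (0.64, adjusted p = 0.311) and Hibadh (0.65, adjusted p = 0.430), which release and oxidise hydroxyisobutyrate, had higher means after DDE with overlapping groups. Hibch passed without DDE 4 (change 0.90, adjusted p = 0.0280). Bckdha, Bckdhb and Hibch passed in no other fit without 1 array, and none of their DDE 4 spots lay in a patch.

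Of the measured genes whose products carry propionyl-CoA from valine, isoleucine and methionine into the citric acid cycle, 3 are members. Mcee, which acts in the same route, is given below with the other pathway genes. The paired subunits of propionyl-CoA carboxylase differed in sign. Pcca read 11.12, 10.88, 10.85 and 10.93 in DDE livers, against 10.55, 10.31, 10.18 and 9.71 in control livers, with no overlap (change 0.76, adjusted p = 0.076). Pccb read 8.73, 8.66, 8.28 and 8.52 in DDE livers, against 8.81, 8.94, 8.82 and 8.68 in control livers (change -0.27, adjusted p = 0.335). Mut, the vitamin B12-dependent mutase, averaged 12.24 ± 0.26 in DDE livers and 11.93 ± 0.24 in control livers (adjusted p = 0.469). Of these genes 0 of 3 passed in limma, and 1 (Pcca) had an unadjusted p under 0.05.

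Histidine, proline, ornithine and lysine. None of these 9 genes passed the limma test. Uroc1 and Aldh4a1, with higher means after DDE, and Hal and Oat, with lower means, had an unadjusted p under 0.05. Neighbouring steps of histidine breakdown had changes of opposite sign. Hal, the ammonia-lyase that starts the route, read 13.84, 13.60, 13.14 and 13.78 in DDE livers, against 14.10, 14.13, 13.98 and 13.76 in control livers (change -0.40, adjusted p = 0.329). Uroc1, the urocanase that follows, read 12.49, 12.80, 12.56 and 12.83 in DDE livers, against 12.17, 12.10, 12.20 and 11.72 in control livers. Its groups were fully apart, and it came closest to the threshold among the genes that missed it (change 0.62, adjusted p = 0.0638). In the limma fit without patch spots its adjusted p was 0.0454, though none of its own spots lay in a patch and its change stayed at 0.62. That fit called 1383 of 42857 probes as higher and 406 as lower, against 1005 and 284 of 42957 with all spots. Ftcd, which hands the formimino group of histidine to folate, ranged from 12.98 to 14.63 in DDE livers and from 13.43 to 15.01 in control livers (adjusted p = 0.522).

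Prodh, the proline oxidase, was even across the 8 livers, with 13.61 ± 0.16 in DDE livers and 13.68 ± 0.15 in control livers (95% interval of the change -0.34 to 0.19). Prodh2, the hydroxyproline oxidase, spread by about as much within each group, from 10.73 to 12.74 in DDE livers and from 10.42 to 12.40 in control livers. Aldh4a1, which turns the product of proline and ornithine breakdown into glutamate, read 13.69, 13.89, 13.85 and 14.14 in DDE livers, against 13.37, 13.59, 13.10 and 13.60 in control livers. The groups did not overlap (change 0.48, adjusted p = 0.153). Oat, the ornithine transaminase, which in mouse liver is made mainly by hepatocytes around the central vein, read 12.84, 13.45, 13.48 and 13.44 in DDE livers, against 13.45, 13.82, 14.28 and 14.17 in control livers (change -0.63, adjusted p = 0.238). Its lowest control value met the DDE range, and control 4 was a patch spot. Aass, the first enzyme of lysine breakdown, ranged from 11.42 to 12.77 in DDE livers and from 11.75 to 13.12 in control livers (change -0.68, adjusted p = 0.544).

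Sulfur amino acids and Gstcd. Of the 4 sulfur genes 0 passed in limma, and 1 had an unadjusted p under 0.05. That gene was Cbs, whose enzyme commits homocysteine to cysteine synthesis. Cbs read 14.39, 14.38, 13.33 and 13.95 in DDE livers, against 15.21, 15.18, 14.46 and 14.86 in control livers. The highest DDE value, 14.39, lay just below the lowest control value, 14.46 (change -0.92, 95% interval -1.58 to -0.25, adjusted p = 0.159). Cth, which completes that conversion, differed by -0.07 at its brighter probe (95% interval -0.38 to 0.25) and by 0.46 at the other (adjusted p = 0.186). Cdo1, which oxidises cysteine, and Csad, which leads on to taurine, differed by 0.23 and 0.32 (adjusted p = 0.589 and 0.675). Gstcd was below background on all 8 arrays at both of its probes, so it has no fold change.

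Among 62 measured genes out of 67 listed for the rest of amino acid catabolism, 1 rose and 0 fell in limma, with a median change of 0.08. Without adjustment, p was under 0.05 for 10 (16.1%) as higher and 5 (8.06%) as lower, at or below the shares of expressed genes. The 1 was Auh, the hydratase that follows the Mccc1 and Mccc2 step in leucine breakdown. Auh read 11.67, 12.08, 12.24 and 12.35 in DDE livers, against 10.74, 10.68, 10.77 and 10.06 in control livers, 2.87-fold higher (change 1.52, limma adjusted p = 0.0173). All DDE values were above all control values. Its call was lost without DDE 2 (adjusted p = 0.0625), DDE 3 (0.0532) or control 2 (0.0542). Several listed genes next to the members missed the threshold: Mcee, which acts between the propionyl-CoA carboxylase and Mut, differed by 0.68 (adjusted p = 0.0726), and Qprt, which takes the tryptophan route into NAD, by 0.59 (adjusted p = 0.0852). The highest Mcee values, DDE 2 and DDE 3, were patch spots. Of the sulfur genes, Tst differed by 1.49 (adjusted p = 0.113) and Mpst, a related sulfurtransferase, by -1.16 (adjusted p = 0.148). The highest Tst value, DDE 1, was a patch spot. Gstz1, the isomerase between Hgd and Fah, differed by -0.02.

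**Figure D4:**
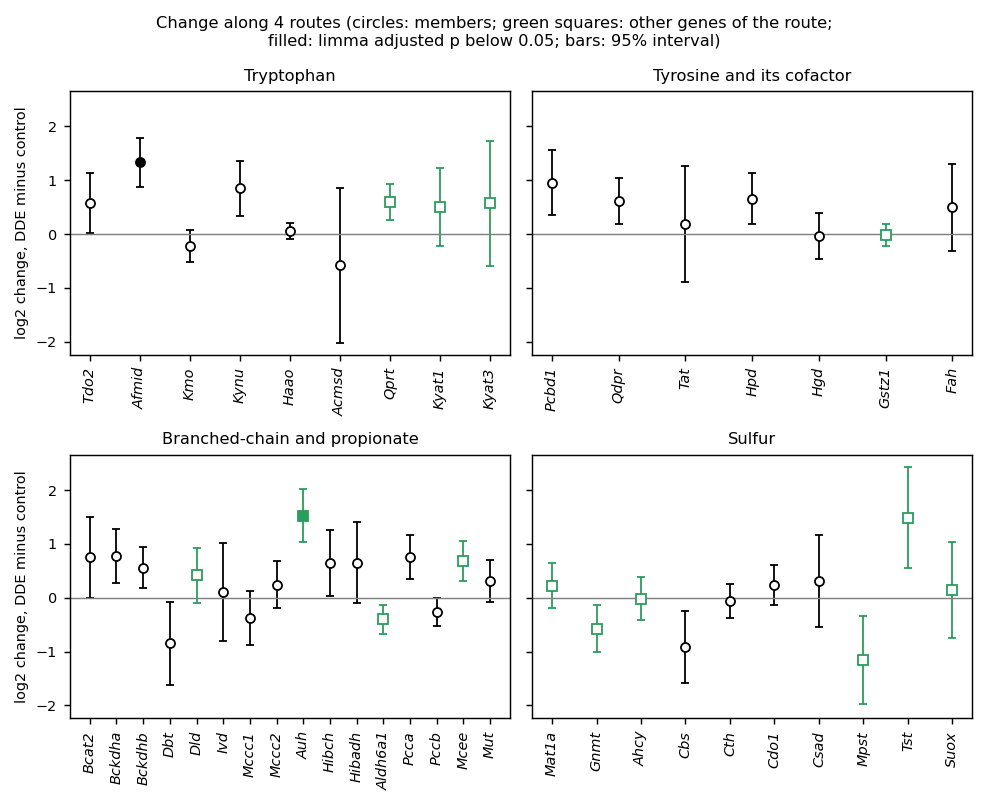
Log2 change (DDE minus control) with its 95% interval for genes of 4 routes, placed roughly in the order of the steps, with the members as black circles and other genes of the route as green squares (n = 4 mice per group). Afmid (1.33) and Auh (1.52) are the filled points, past an adjusted p of 0.05, and neighbouring steps differ in sign in the branched-chain and sulfur routes.

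Receptors and transcription factors listed as regulators of amino acid breakdown were read from the same arrays. Whether they act on these enzymes in these livers was not tested. Of 12 measured, 0 rose and 1 fell in limma, and without adjustment p was under 0.05 for 1 (8.33%) as higher and 3 (25%) as lower. Atf5, a leucine zipper factor abundant in liver and linked to mitochondrial and amino acid stress, read 13.99, 13.70, 13.95 and 14.06 in DDE livers, against 15.41, 15.85, 15.79 and 15.46 in control livers. The change was -1.70 (limma adjusted p = 0.00406), and it passed in each of the 8 fits without 1 array. The 2 highest control signals, control 2 and control 3, were near the upper limit of the scale and lay in patches, and without patch spots the change was -1.51 (adjusted p = 0.00653). Ppargc1a, a coactivator of the fasting response, averaged 8.29 ± 0.17 in DDE livers and 9.35 ± 0.64 in control livers and did not pass (adjusted p = 0.134). Its highest control value, control 4 at 10.31, was a patch spot. Cebpb and Foxa2 also had an unadjusted p under 0.05, with changes of 0.79 and -0.93 (limma adjusted p = 0.164 and 0.262). Atf4 differed by -0.02 (limma adjusted p = 0.960). The glucocorticoid receptor gene Nr3c1 and the glucagon receptor gene Gcgr differed by 0.08 and 0.17 (adjusted p = 0.781 and 0.860).

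Mice within a group also differed from each other. Relative to each gene's control mean, the median of the 42 genes was 0.28, 0.31, 0.18 and 0.11 in the DDE livers and 0.12, 0.08, -0.10 and -0.14 in the control livers. The medians of all expressed genes were 0.19, 0.13, 0.11 and -0.08 in the DDE livers and 0.12, 0.07, 0.01 and -0.28 in the control livers, so most of that order is shared with expressed genes at large. In 7 of the 42 genes (16.7%: Got2, Gpt, Ftcd, Ivd, Aass, Csad and Cbs), livers 1 and 2 read above livers 3 and 4 in both groups, against 12% of expressed genes. The mice are numbered by the labels only, and the plot of values by liver shows these genes. Csad, for instance, read 9.50, 9.66, 8.61 and 8.58 in DDE livers and 9.23, 9.24, 8.43 and 8.19 in control livers.

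**Figure D5:**
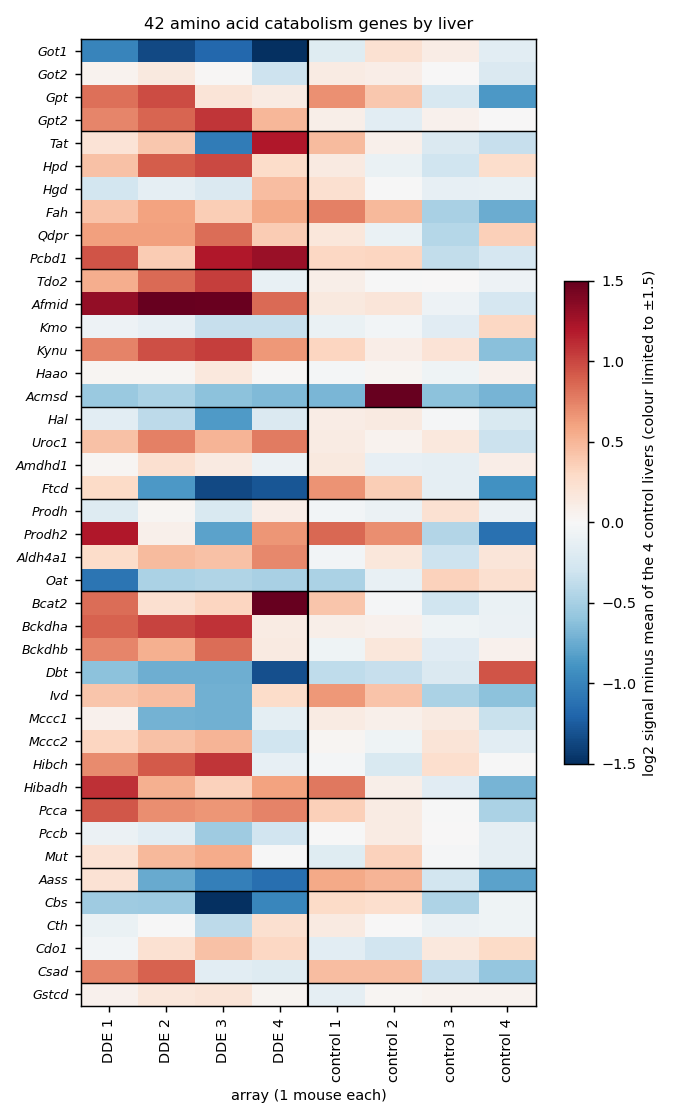
Log2 signal of each of the 42 genes in each liver minus the gene's mean over the 4 control livers, as colour (red higher, blue lower, limited to 1.5 either way), with DDE livers left and control livers right and lines between amino acid groups. Got1 is blue and Afmid and Gpt2 are red in all 4 DDE livers, while genes such as Gpt, Ftcd and Csad vary more between mice than between groups.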

How the data were processed

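The authors deposited 1 table of log2 intensity values for 42957 probes on 8 arrays, 1 per sample, and it was used as deposited. Per the labels, Cy3-labelled cRNA was made from total liver RNA. How background was corrected, how arrays were normalized and which filters were used is not given in the sources used here. The 8 columns share nearly the same quantiles (medians 7.46 to 7.47), so the values were already normalized between arrays. Probes were named through the platform's annotation table (33009 probes with 1 symbol, 9948 with none). A gene with several probes was read at the probe with the highest mean over the 8 arrays. Probe sequences and genome positions were not used here, and probes were designed for the laboratory mouse, so binding to Mus spretus transcripts may differ.

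Every probe was fitted with limma 3.58.1 in R 4.3.3 (lmFit, eBayes, no covariate, two-sided), with Benjamini-Hochberg adjustment over all 42957 probes at 0.05. The members and lists were chosen with earlier results of these data known. By the rule for named genes, full statistics went to each member past the threshold, the smallest p of each amino acid group, the largest changes with no overlap between groups, and other pathway genes and regulators past the threshold; other genes in the text were chosen after their values were seen. Background on each array was set at the 0.95 quantile of the 1634 olfactory and vomeronasal receptor probes outside patches. A patch spot had a median deviation beyond 0.3 in a window of 7 rows by 5 columns. Signals of 15.5 or more were taken as near the upper limit of the scale. A fold is given as a lower bound where the brighter group reached that level or the dimmer group reached background. Such a bound refers to the group means and leaves out the spread between mice.

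In simulated arrays of 42957 probes with 4 per group, 42%, 60%, 88% and 92% of probes changed by 1, 2, 3 and 4 (log2) were called, and 14 of 42757 unchanged probes. The simulated noise was normal and independent for each probe, without patches or shifts shared within an array. These shares therefore describe such noise and need not hold for the deposited arrays. The labels do not say that replicate numbers pair the mice, so the main fit used no pairing and the replicate block was an alternative. Correlations of same-numbered deviations lay between -0.06 and 0.15, and those of other numbers between -0.15 and 0.12. Of 8 arrays, 5 correlated best with their own number. Whether arrays of the same number share a batch or a pairing was not tested. With 8 arrays, their number limits the precision. Alternatives were those named in the closing section.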

Additional observations from a re-analysis of the deposited data

Results flagged for a closer look

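Some values stood apart from the other 3 of their group by a gap that took up most of the group's range. Among 88 groups of 4 values, 10 did so, where chance alone flags about 1 in 20. In DDE livers these were Haao in DDE 3 (15.73), Oat in DDE 1 (12.84), Dbt in DDE 4 (8.17) and Ivd in DDE 3 (12). In control livers they were Acmsd in control 2 (10.25, with the other 3 control values at 7.55 to 7.63), Prodh in control 3 (13.91), Dbt in control 4 (10.43), Mccc1 in control 4 (10.69), Gstcd in control 1 (7.05, below background) and Auh in control 4 (10.06). Both Dbt values lay in patches of the array, and the Acmsd value did not. Without control 4, the change of Auh was 1.36 (adjusted p = 0.0196). The cause of these values was not tested.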

How the results depend on the processing

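Each of the 15 genes given full statistics kept the direction of its change in every alternative run that measured it. Atf5 passed in 19 of 20 alternatives, Got1 in 18, Auh in 16, Afmid in 14 and Gpt2 in 11. Members past the threshold as higher (2 as reported) numbered 5 among probes above background in at least 4 arrays, 1 with an intensity trend and robust variance, 7 with array weights, 6 without control 4 and DDE 4, 4 with patch spots left out and quantile normalization, and 0 to 6 when 1 array was left out. In the same order, probes past the threshold as higher (1005 of 42957 as reported) numbered 1500 of 18109, 399, 1607 and 1265 of 42957, and 1504 of 42857. Without 1 array they numbered 271 to 1362 of 42957. The member counts are to be read beside these. Members past it as lower (1) numbered 0 to 1 when 1 array was left out. Other pathway genes numbered, in the same order, 5, 1, 4, 2 and 3 as higher (1 as reported, 3 with probes of a gene averaged, 0 to 2 without 1 array), and as lower (0) 1 without control 4 and DDE 4, 3 with patch spots left out and quantile normalization, and 0 to 1 without 1 array. Probes called in all (1289) numbered 2018 above background, 511 with trend and robust variance, 2140 with array weights, 775 with probes of a gene averaged, 766 with 1 probe per gene, 2595 with patch spots left out and quantile normalization, and 332 to 1596 without 1 array. With the replicate block 9 probes were called, and 0 members and 0 other pathway genes. The cause of these shifts was not tested. Quantile normalization alone, centring on the 75th percentile and leaving out the dimmer probes called the same 3 members. Besides those 3, Kynu, Pcca, Uroc1, Bckdha, Bckdhb, Qdpr, Hibch and Tdo2 passed as higher under at least 1 alternative each. Signals near the upper limit of the scale (Haao, Pcbd1, Atf5) or near background (Acmsd, Amdhd1, Gstcd, Bcat2) limit what can be seen of those genes.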
